A study of Homo sapiens with 4 samples.

Results

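The noncoding host genes of small nucleolar RNAs (snoRNAs) described here are GAS5, SNHG1, SNHG5, SNHG6, SNHG7, SNHG8, SNHG12, SNHG15, SNHG16 and ZFAS1. They were chosen by symbol, and all 10 were found among the 25027 symbols or unmatched identifiers of the gene tables, as 21 RefSeq transcript rows. All 10 lie among the 11631 genes whose mean reached 1 FPKM (fragments per kilobase of transcript per M, or mega, mapped reads), which are called tested genes below. RNA came from RPE1 cells, an immortalised human retinal pigment epithelial cell line, transfected with 10 nM of either a negative control Stealth siRNA or a Stealth siRNA of a single sequence against SAF-A. SAF-A (scaffold attachment factor A, encoded by HNRNPU) is a plentiful protein of the nucleus with contacts to RNA and to chromatin. Cells were collected 24 h or 48 h after transfection. The 4 groups are thus control siRNA at 24 h, SAF-A siRNA at 24 h, control siRNA at 48 h and SAF-A siRNA at 48 h, with 1 library each. No value below has a replicate or a test. The bounds given are the 95% intervals that the authors deposited, which cover the uncertainty of counting and assigning reads within a library. For a gene with several rows, as SNHG7, SNHG8, SNHG16 and ZFAS1 among the hosts, the bounds of the rows were added. Such sums are not 95% intervals of the gene, so intervals apart mean different things for genes with 1 row and with several.

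A snoRNA host gene makes a spliced RNA whose introns hold snoRNAs. When the introns are removed, the snoRNAs are trimmed out of them and survive as stable particles, whereas the spliced host RNA goes its own way. Box C/D snoRNAs guide methylation of the ribose in ribosomal RNA and box H/ACA snoRNAs guide the conversion of uridine to pseudouridine. The spliced RNAs of these hosts contain short open reading frames, are read by ribosomes and are known for rapid loss through nonsense-mediated decay, a pathway that removes RNAs whose translation stops early. Several begin with a run of pyrimidines (5′ terminal oligopyrimidine tract), as mRNAs of ribosomal proteins do.

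Depth differed between the libraries. The deposited values imply 28.1 M, 30.7 M and 28.6 M mapped reads for control siRNA at 24 h, SAF-A siRNA at 24 h and control siRNA at 48 h, but 1.22 M for SAF-A siRNA at 48 h. Every comparison with that library rests on few reads, and estimates of them are given for the hosts and for several other values. The targeted gene HNRNPU was at 91.2 FPKM (24 h) and 84.6 FPKM (48 h) with control siRNA, against 10.4 FPKM (24 h) and 9.24 FPKM (48 h) after SAF-A siRNA, which is 11.4% and 10.9% of control. All 7 genes listed as markers of the RPE1 line were above a mean of 1 FPKM, among them VIM and ITGB1. At 48 h VIM and ITGB1 rose and KRT7 fell at least 2-fold with SAF-A siRNA, where 14.2% of tested genes rose and 20.1% fell. KRT8 and KRT18 were lower too, but their FPKM in the 3 deep libraries carries a failed status and lies above its own interval, as 14 tested genes in all have a row without an OK status. None of 5 markers of differentiated pigment epithelium (RPE65, RLBP1, BEST1, TYR, PMEL) and none of 7 markers of other cells (PTPRC, PECAM1, EPCAM, HBB, CD3E, GFAP, ALB) reached that mean. Fewer cells of a kind and less RNA per cell cannot be told apart in such bulk libraries.

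Starts of hosts are shown because the pyrimidine tract is what is held to tie their translation to that of ribosomal proteins. The 30 bases around each start shown were read from GRCh37 (hg19), the build of the deposited files, 5′ to 3′ on the RNA strand. The start base is the base after the first 15, and capitals mark the longest run of C and T that covers it or lies within 3 bases of it.
GAS5 (chr1:173837111-173837140, minus strand): ggcaccatactgTCTTTTCgaggtaggagt
SNHG1 (chr11:62623346-62623375, minus strand): tccccggggagattcgTTCTCatttttcta
SNHG5 (chr6:86388437-86388466, minus strand): gctgcgcacttcggTCTTTTacgtcggcct
SNHG7 (chr9:139622622-139622651, minus strand): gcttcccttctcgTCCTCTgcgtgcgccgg
SNHG8 (chr4:119199902-119199931, plus strand): aaggcctcggCCTTTCacattcgggaagcg
SNHG12 (chr1:28908352-28908381, minus strand): tctccccgccgcaTTCCCggtgtcgactta
SNHG15 (chr7:45026245-45026274, minus strand): ggtgcgcggcgcagCgcgcggcgtcagtct
SNHG16 (chr17:74553831-74553860, plus strand): cgcaggggcggtctcgcgTTCTTTTCgagg
ZFAS1, start of NR_036659 (chr20:47895164-47895193, plus strand): aggaagccattcgTTCTTTCgcgtctgcgg

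At the start of the most abundant transcript, a run of at least 5 pyrimidines was found in 8 of 10 hosts, SNHG6 included. The other 2 had shorter runs, 1 base in SNHG15. The median run was 6 bases in the hosts, and 3 bases both in 127 tested protein-coding snoRNA hosts (unmatched identifiers included) and in 10972 tested genes of at least 300 nt. Runs of at least 5 occurred in 33.1% of those coding hosts and 24.8% of those genes. ZFAS1 has a further annotated start inside its first exon region, used by NR_036659, and there the run was 7 bases. That transcript is the most abundant of ZFAS1 in the 3 deep libraries, but its start is not the one counted above, since the mean over the 4 libraries chose another transcript. Annotated starts can be off by a few bases, and these matches are descriptions of the letters only.

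The introns of the 10 hosts hold 35 annotated snoRNAs, 28 of box C/D and 7 of box H/ACA. The sequences below are of snoRNAs whose values the results turn on. They are 4 H/ACA RNAs and 2 C/D RNAs with higher levels with SAF-A siRNA at 24 h, and the 2 short C/D RNAs that had a read in the SAF-A library at 48 h. Capitals mark TGATGA within the first 20 bases and the last CTGA within the last 20 bases of C/D RNAs, which are the usual letters of boxes C and D, and ACA followed by 3 bases at the end of H/ACA RNAs.
SNORA24, in SNHG8 (chr4:119200345-119200475, plus strand): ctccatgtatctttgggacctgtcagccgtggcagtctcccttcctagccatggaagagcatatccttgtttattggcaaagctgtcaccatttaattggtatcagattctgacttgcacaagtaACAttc
SNORA16A, in SNHG12 (chr1:28907432-28907565, minus strand): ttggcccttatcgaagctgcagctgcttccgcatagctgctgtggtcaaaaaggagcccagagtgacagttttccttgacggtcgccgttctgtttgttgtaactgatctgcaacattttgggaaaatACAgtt
SNORA9, in SNHG15 (chr7:45024977-45025109, minus strand): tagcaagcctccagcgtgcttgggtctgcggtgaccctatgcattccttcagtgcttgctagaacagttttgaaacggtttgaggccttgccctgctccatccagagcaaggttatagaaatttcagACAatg
SNORA17A, in SNHG7 (chr9:139621199-139621331, minus strand): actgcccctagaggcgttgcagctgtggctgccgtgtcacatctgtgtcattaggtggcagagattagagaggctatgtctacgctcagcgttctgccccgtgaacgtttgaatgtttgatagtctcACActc
SNORD22, in SNHG1 (chr11:62620382-62620507, minus strand): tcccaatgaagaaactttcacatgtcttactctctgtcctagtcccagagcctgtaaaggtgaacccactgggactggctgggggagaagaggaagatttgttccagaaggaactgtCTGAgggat
SNORD27, in SNHG1 (chr11:62622484-62622555, minus strand): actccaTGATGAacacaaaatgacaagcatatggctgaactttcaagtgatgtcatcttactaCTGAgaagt
SNORD76, in GAS5 (chr1:173835773-173835853, minus strand): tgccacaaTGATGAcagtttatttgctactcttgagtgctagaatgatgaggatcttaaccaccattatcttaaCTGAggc
SNORD47, in GAS5 (chr1:173833507-173833583, minus strand): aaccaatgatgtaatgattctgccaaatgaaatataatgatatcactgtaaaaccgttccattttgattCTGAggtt

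On the RNA strand, TGATGA was found in 17 of the 28 C/D RNAs of the hosts (60.7%) and in 70.6% of 238 other C/D RNAs in the files. CTGA was found in 26 of 28 (92.9%) against 96.6% of the others. ACA with 3 bases after it was found in 6 of 7 H/ACA RNAs, against 79.8% of 99 others. On the opposite strand TGATGA and ACA were found in none of the hosts' snoRNAs at these places, and CTGA in 1. In the exact letters, SNORD22 and SNORD47 lack TGATGA in this window, which says nothing of whether a looser box is present.

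Levels of the hosts, in FPKM, which is per length and so can be set side by side between genes, were high in the 3 deep libraries. SNHG8 was the most abundant in each of those libraries, at 242 FPKM in control siRNA at 24 h, 233 in SAF-A siRNA at 24 h and 272 in control siRNA at 48 h. In control siRNA at 24 h it lay above 96.7% of tested genes. Of those levels, 116, 129.6 and 141 FPKM came from its transcript of 274 nt, on 15.5%, 20.1% and 16.8% of its estimated reads. FPKM is less secure for so short a transcript, and without it SNHG8 was not the highest host in any of these libraries. SNHG12 was the least abundant, at 34.8, 25.8 and 30.4 FPKM in the same libraries, above 81.2% of tested genes in the first of them.

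In control siRNA at 24 h the order from high to low was SNHG8, SNHG16, SNHG6, ZFAS1, SNHG1, GAS5, SNHG5, SNHG7, SNHG15 and SNHG12. The intervals of SNHG16 and SNHG6, of SNHG6 and ZFAS1, of SNHG5 and SNHG7, and of SNHG15 and SNHG12 overlapped, so these neighbours do not differ beyond their bounds. In SAF-A siRNA at 48 h SNHG6 was first at 457 FPKM and ZFAS1 the next at 307 FPKM, and both were apart from their lower neighbour. There GAS5, SNHG8, SNHG5, SNHG1 and SNHG16 followed with neighbours whose intervals overlapped, and SNHG12 was last at 7.68 FPKM, above 47.3% of tested genes.

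**Figure D1:**
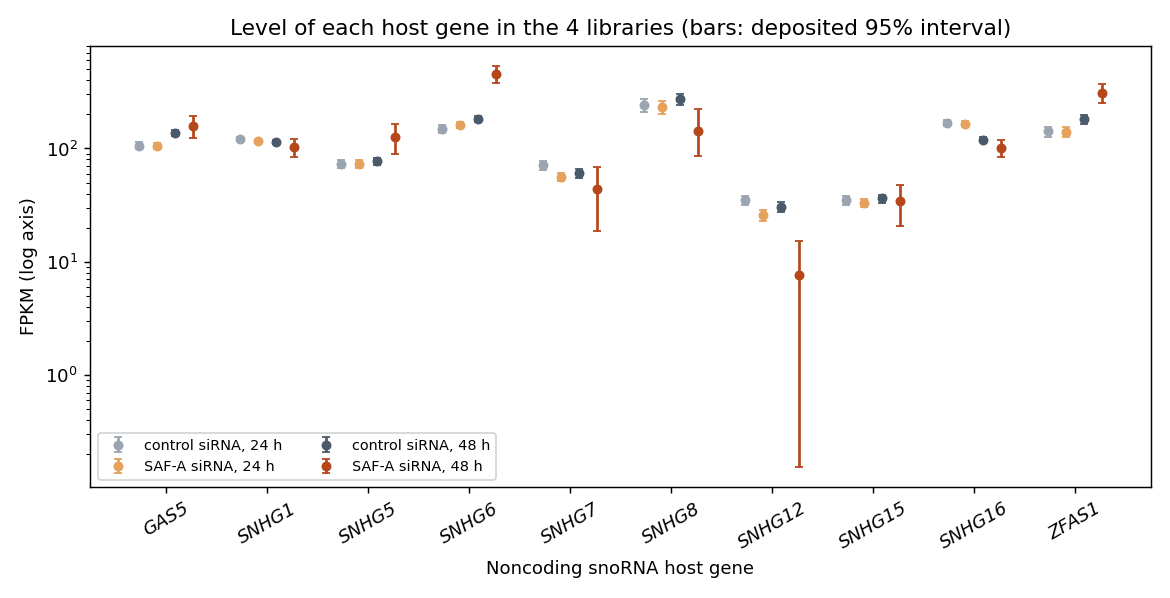
FPKM (log axis) of the 10 host genes in the 4 libraries, with the deposited 95% interval as bars and 1 library per point. For hosts with several transcripts the bars are sums of the transcripts' bounds. The libraries at 24 h sit close together for most hosts, while SAF-A siRNA at 48 h lies highest for SNHG6 at 457 FPKM and lowest for SNHG12 at 7.68 FPKM.

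The comparison of SAF-A with control siRNA at 24 h asks whether loss of SAF-A was accompanied by a change of the hosts early on, in 2 libraries of like depth. None of the 10 hosts changed at least 2-fold, where 3.08% of tested genes did and 0.633% of those of at least 300 nt. Changes are given as log2 of (FPKM + 1) with SAF-A siRNA over (FPKM + 1) with control siRNA. The median over the hosts was -0.03, beside -0.06 over all tested genes, and the hosts ranged from -0.42 to 0.12.

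SNHG12 and SNHG7 were the hosts with intervals apart, both lower. SNHG12 was at 34.8 FPKM (bounds 31.4 to 38.2) with control siRNA and at 25.8 FPKM (23.0 to 28.5) with SAF-A siRNA, a log2 difference of -0.42. SNHG7 was at 70.9 FPKM (64.6 to 77.1) and 56.0 FPKM (51.7 to 60.4), a log2 difference of -0.34. Both differences are well short of 2-fold. Intervals apart and lower were found in 17.5% of tested genes, so 2 of 10 is near the background share. None was higher with intervals apart, as 8.98% of tested genes were.

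For the other 8 hosts the intervals overlapped. GAS5, the growth arrest transcript that holds 10 C/D snoRNAs, was at 105.7 FPKM with control siRNA and 105.6 with SAF-A siRNA. ZFAS1, named for its place antisense to the start of ZNFX1, was at 141 and 139.9 FPKM. SNHG5 was at 73.0 and 72.9 FPKM, SNHG16 at 168 and 166 FPKM, and SNHG8 at 242 and 233 FPKM. SNHG1 was at 121 and 116 FPKM, SNHG15 at 35.0 and 33.0 FPKM, and SNHG6 at 149 and 161 FPKM. The range that both libraries' bounds allow for the ratio of SAF-A to control was 0.870 to 1.15 for GAS5 and 0.809 to 1.21 for ZFAS1.

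At 48 h the hosts covered a wider range than at 24 h, and more of all tested genes passed 2-fold. Past 2-fold either way were 2 of 10 hosts and 34.4% of tested genes, after 3.08% of tested genes at 24 h. Intervals were apart for 5 of 10 hosts and 48.5% of tested genes. SNHG6 rose at least 2-fold and SNHG12 fell at least 2-fold with SAF-A siRNA, while 14.2% of tested genes rose and 20.1% fell by that rule. The median over the hosts was -0.12, close to that over all tested genes (-0.115), but the hosts ranged from -1.85 to 1.32.

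SNHG6 was at 149 FPKM (bounds 138 to 159.8) with control siRNA at 24 h, 161 FPKM with SAF-A siRNA at 24 h, 182 FPKM (169.6 to 194) with control siRNA at 48 h and 457 FPKM (379 to 535) with SAF-A siRNA at 48 h. The last library stands above the other 3 with no overlap. At 48 h the ratio was 2.51 (1.95 to 3.15 from the bounds), a log2 change of 1.32, and rests on an estimated 149 reads in the SAF-A library. SNHG6 is annotated with a single transcript of 472 nt.

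ZFAS1 and SNHG5 were also higher with SAF-A siRNA at 48 h with intervals apart, but below 2-fold. ZFAS1 went from 181 FPKM (164 to 198) to 307 FPKM (251 to 372), a log2 difference of 0.76 on an estimated 183 reads. Its reads per M mapped reads, which are not divided by transcript length, went from 66.1 to 150.2, a log2 difference of 1.18. SNHG5, host of SNORD50A and SNORD50B, went from 76.8 FPKM (70.8 to 82.8) to 126 FPKM (88.9 to 163) on an estimated 46 reads, a log2 difference of 0.71. Intervals apart and higher were found for 3 of 10 hosts, and for 21.9% of tested genes.

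SNHG12, which holds 3 H/ACA RNAs and 1 C/D RNA, went from 30.4 FPKM (27.3 to 33.5) to 7.68 FPKM (0.155 to 15.2) at 48 h. That is 3.95-fold lower, or -1.85 as log2 change, on an estimated 5 reads. It was lower with SAF-A siRNA at both times with intervals apart. SNHG8 went from 272 FPKM (241 to 303) to 143 FPKM (85.8 to 222), a log2 difference of -0.92. With its transcript of 274 nt left out, the difference of SNHG8 in FPKM was 0.13. Its reads per M mapped reads, all rows together, went from 64.9 to 40.2 (log2 difference -0.69), on an estimated 49 reads in the SAF-A library. Intervals apart and lower were found for 2 of 10 hosts, and for 26.6% of tested genes.

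The other 5 hosts had overlapping intervals at 48 h. GAS5 was at 138 and 159 FPKM, SNHG1 at 115 and 102.5 FPKM, and SNHG15 at 36.2 and 34.3 FPKM. SNHG16 was at 120.0 and 101 FPKM, and SNHG7 at 60.5 and 43.5 FPKM. The SAF-A library holds an estimated 83 reads of GAS5, 114 of SNHG1, 25 of SNHG15 and 274 of SNHG16. For SNHG7 the bounds in the SAF-A library, 18.6 to 69.2 FPKM on an estimated 38 reads, would hold a fall past 2-fold as well as a rise. The change at 48 h differed between classes of length, with the lowest median in the shortest class and medians that fell with length from 600 nt up. The median log2 change was -0.48 over 199 genes of 300 to 600 nt, where 25.6% rose and 36.2% fell at least 2-fold. It was 0.23 over 930 genes of 600 to 1200 nt, then 0.03, -0.17 and -0.21 in the longer classes, in order of length. From 600 nt up, 26.8%, 18.9%, 11.2% and 8.75% rose at least 2-fold in the same order, and 20.2%, 18.1%, 18.7% and 16.4% fell. The shares over all tested genes given beside the hosts mix these classes. SNHG5 (507 nt) and SNHG6 (472 nt), both higher at 48 h, lie in the class of 300 to 600 nt. The longest SNHG8 transcript has 619 nt. The part of length and depth in the hosts' differences was not tested.

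**Figure D2:**
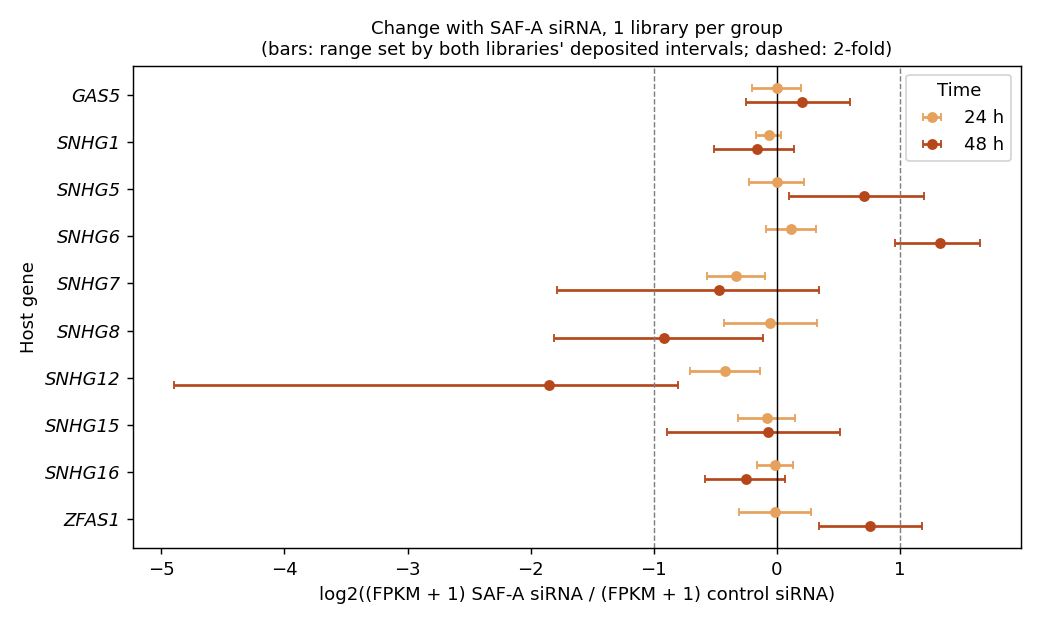
Log2 change of (FPKM + 1) with SAF-A siRNA against control siRNA for each host at 24 h and 48 h, with bars that run between the extremes allowed by both libraries' deposited intervals and dashed lines at 2-fold. For hosts with several transcripts the transcripts' bounds were added. At 24 h all points lie between -0.42 and 0.12, and at 48 h they run from -1.85 for SNHG12 to 1.32 for SNHG6.

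Time alone can be read from the pairs of libraries with the same siRNA. These comparisons share libraries with those above, so they are no separate support. With control siRNA none of the 10 hosts changed at least 2-fold from 24 h to 48 h, where 3.15% of tested genes did. GAS5 (105.7 to 138 FPKM), SNHG6 (149 to 182 FPKM) and ZFAS1 (141 to 181 FPKM) were higher at 48 h with intervals apart, as were 18.3% of tested genes, at log2 differences of 0.38, 0.29 and 0.36. SNHG16 was lower at 48 h, at 168 and 120.0 FPKM, a log2 difference of -0.48, as were 12.8% of tested genes with intervals apart.

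With SAF-A siRNA, SNHG6 (log2 change 1.49) and ZFAS1 (1.13) rose at least 2-fold from 24 h to 48 h and SNHG12 fell (-1.62). Over all tested genes 15.1% rose and 17.8% fell. GAS5 (0.59) and SNHG5 (0.78) were higher with intervals apart but below 2-fold, and SNHG16 (-0.72) was lower. Those 6 hosts with intervals apart compare with 47.3% of tested genes.

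The files hold 4 of the hosts in several RefSeq transcripts, SNHG7, SNHG8, SNHG16 and ZFAS1, and the makeup of these was read in each library as a share of the summed FPKM. Each other host had 1 transcript. Shares come from the authors' assignment of 50-base reads to overlapping transcripts, which is uncertain where transcripts differ by little. Of 11 such transcripts with a mean of at least 1 FPKM, 4 were lower with SAF-A siRNA at both times with intervals apart and none was higher at both times. The same held for 12.4% and 6.8% of 10100 transcripts of all genes with several transcripts. The control and SAF-A libraries of the 2 times are separate libraries.

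SNHG16 showed the same direction at both times in its use of an internal exon. NR_038109 holds an exon of 99 nt that NR_038111 skips, and the transcripts are otherwise alike. This exon is shown because it is all that the 2 transcripts differ in. It is given in capitals with 20 bases of intron on either side, which end in AG before it and begin with GT after it, and it is also an exon of GENCODE release 44.
SNHG16 exon with flanks (chr17:74555007-74555145, plus strand): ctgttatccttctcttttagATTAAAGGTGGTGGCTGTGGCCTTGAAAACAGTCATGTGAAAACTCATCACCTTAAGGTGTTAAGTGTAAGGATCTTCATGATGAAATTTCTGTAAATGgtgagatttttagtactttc

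The transcript with this exon was at 43.2 FPKM (bounds 40.4 to 46.0) with control siRNA and 22.9 FPKM (21.1 to 24.7) with SAF-A siRNA at 24 h. At 48 h it was at 32.0 FPKM (29.7 to 34.2) and 4.38 FPKM (0.926 to 7.84), the last on an estimated 12 reads. The transcript that skips the exon was at 125 FPKM (119 to 131) and 143 FPKM (137 to 149.9) at 24 h, then 88.1 and 96.4 FPKM at 48 h. The share of the form with the exon was 25.7% and 13.8% at 24 h and 26.6% and 4.35% at 48 h, control before SAF-A. Both SAF-A libraries lie below both control libraries. The 2 control libraries differ by 0.904 percentage points, although the level of SNHG16 was lower in the later. The shift between siRNAs at 24 h was 11.9 percentage points, beside a median of 6.13 over 3819 genes with several transcripts, of which 9.11% shifted by 30 points or more. At 48 h it was 22.3 points beside a median of 18.9, where 38.0% of genes shifted by 30 points or more.

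In SNHG8 the 3 transcripts share both ends and differ in how much of the first exon region is kept. NR_003584, which keeps most, was at 104 (control) and 82.5 FPKM (SAF-A) at 24 h, then 129 (control) and 16.0 FPKM (SAF-A) at 48 h. NR_034010, which lacks 151 nt of it (chr4:119199948-119200098), was at 21.9, 21.3, 1.71 and 127 FPKM in the same order. NR_034011, the form of 274 nt, was at 116, 129.6, 141 and 0.0012 FPKM (upper bound in the last 21.2). In SAF-A siRNA at 48 h, therefore, 88.9% of SNHG8 was assigned to the form that had 9.04%, 9.12% and 0.629% in the other libraries. Those shares rest on an estimated 41 reads for NR_034010 and 8 for NR_003584. The shift at 48 h, 88.2 percentage points, is past the 30 points that 38.0% of genes reached.

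The 2 most abundant ZFAS1 transcripts differ in their first exon and in an exon that NR_036659 lacks (chr20:47897440-47897501). NR_003605, which begins at the upstream start next to ZNFX1, was at 55.8, 52.5, 60.3 and 294 FPKM in the 4 libraries in that order. NR_036659, which begins 464 nt further downstream at the start with 7 pyrimidines, was at 84.5, 87.2, 118 and 0.422 FPKM. The former took 39.5%, 37.5%, 33.3% and 95.7% of ZFAS1. The shift between siRNAs was 2.53 percentage points at 24 h and 64.9 points at 48 h. The spliced lengths are 687 nt and 502 nt, and the estimated reads in SAF-A siRNA at 48 h were 173 and 0.153.

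SNHG7 was assigned mostly to NR_024542 in 3 libraries, with 85.2%, 91.1% and 76.9%, and to 49.4% in SAF-A siRNA at 48 h. NR_024542 went from 60.4 FPKM with control to 51.0 with SAF-A siRNA at 24 h, and from 46.5 to 21.5 FPKM at 48 h. NR_003672, in which 1708 nt of intron stay in the RNA (chr9:139619684-139621497), SNORA17A and SNORA17B included, went from 6.62 to 4.96 FPKM and from 6.12 to 0.431 FPKM. Both forms were lower with SAF-A siRNA at both times with intervals apart. In the SAF-A library at 48 h this rests on an estimated 19.9 reads of NR_024542 and 1.03 of NR_003672. NR_024543 was listed at 0.00 FPKM in SAF-A siRNA at 24 h (upper bound 0.1004) beside 3.85 in its control. At 48 h it was at 21.6 FPKM, on an estimated 17.0 reads, beside 7.83 in its control.

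**Figure D3:**
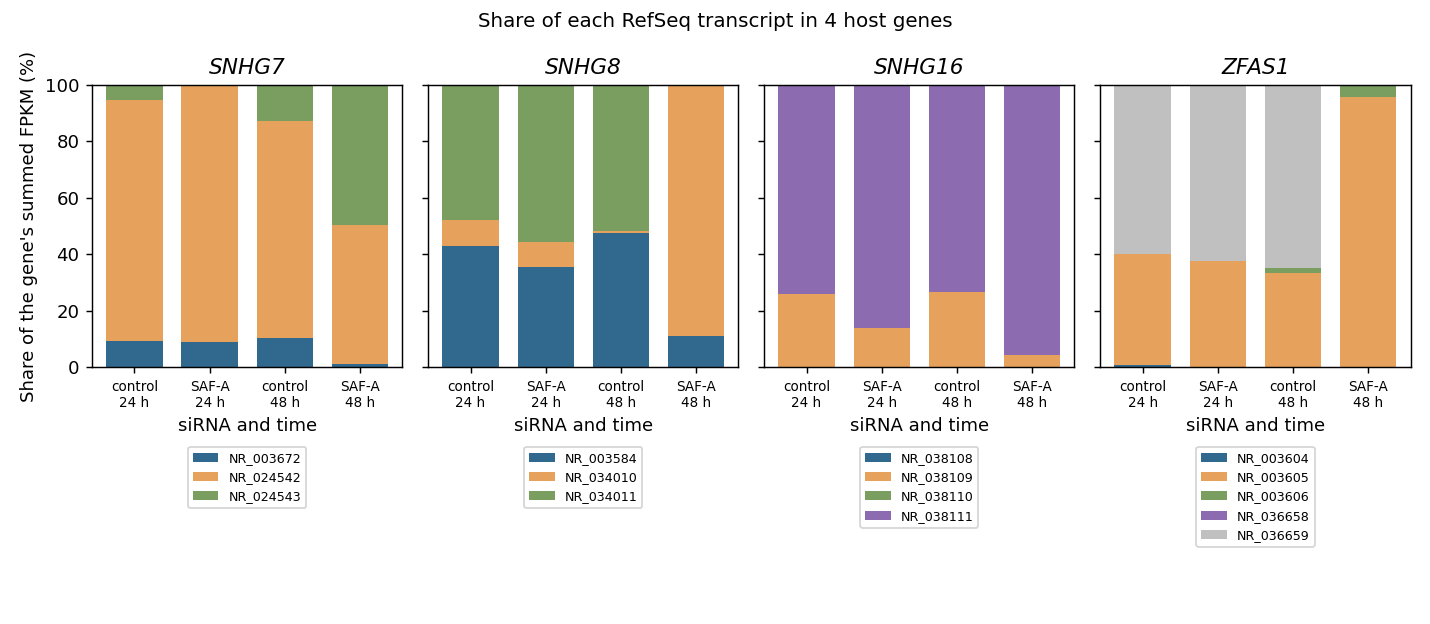
Share of each RefSeq transcript in the summed FPKM of SNHG7, SNHG8, SNHG16 and ZFAS1, in percent, with 1 bar per library and 1 colour per transcript. The SNHG16 form with the exon, NR_038109, has 25.7% and 26.6% in the control libraries and 13.8% and 4.35% in the SAF-A libraries, while SNHG8 and ZFAS1 differ mainly in SAF-A siRNA at 48 h.

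The snoRNAs that leave these introns were read from their own rows. GAS5 holds a snoRNA in 10 of its 11 introns and SNHG1 in 8 of its 10. SNHG12 holds 4, SNHG16 and ZFAS1 hold 3 each, SNHG5 and SNHG7 hold 2 each, and SNHG6, SNHG8 and SNHG15 hold 1 each. Mature snoRNAs are mostly shorter than the fragments that such a library keeps, so their FPKM comes from few reads multiplied by a large factor. The values are therefore used between libraries and not as amounts against the host. Rows under 300 nt held 60.2% (control) and 63.8% (SAF-A) of the FPKM sum at 24 h, then 57.3% and 50.9% at 48 h. Summed snoRNA reads of the hosts per M mapped reads rose at 24 h 1.69-fold in H/ACA RNAs and 1.75-fold in C/D RNAs of at least 100 nt. In C/D RNAs under 100 nt the ratio was 1.09. Unequal recovery of short RNAs between single libraries cannot be told apart from a change in the cells, and was not tested. Estimated reads for snoRNAs were taken from the deposited intervals, and 84.9% of 456 values of 1 to 20 reads came out within 0.05 of a whole read.

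H/ACA RNAs were higher with SAF-A siRNA at 24 h. All 7 in the hosts lay above 0 on the log2 scale and 5 had intervals apart and higher, where 45.8% of 96 H/ACA RNAs outside these hosts did. The median log2 change was 0.76 in the hosts and 0.76 in the others, so the H/ACA RNAs of the hosts moved like the H/ACA RNAs of other genes. Their summed estimated reads went from 64.4 to 108.8 per M mapped reads at 24 h, and from 76.9 to 195.6 per M at 48 h. The exact Poisson intervals, which cover counting error only, were 61.4 to 67.4 and 105 to 113 at 24 h, and 73.7 to 80.2 and 172 to 222 at 48 h. In the H/ACA RNAs of other genes the same sums went from 363 to 650.5 at 24 h and from 388 to 973 per M at 48 h.

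SNORA24, which guides pseudouridine formation in the small-subunit ribosomal RNA, was at 5137 FPKM (4777 to 5498) and 9761 FPKM (9289 to 10234) at 24 h, then 6632 and 15993 FPKM at 48 h. Both SAF-A libraries lie above both control libraries, with intervals apart at each time. The summed FPKM of its host SNHG8 had overlapping intervals at 24 h. Without its transcript of 274 nt the log2 change of SNHG8 at 24 h was -0.28, and its reads per M mapped reads went from 57.9 to 49.8. SNORA16A in SNHG12 was at 941 FPKM (794 to 1088) and 2170.0 FPKM (1957 to 2383) at 24 h, 2.31-fold higher. It went from 1373 to 4212 FPKM at 48 h, 3.07-fold higher. Its host went the other way and was lower with SAF-A siRNA at both times, as given above.

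SNORA17B in SNHG7 went from 5037 FPKM with control to 7215 FPKM with SAF-A siRNA (24 h), and from 4556 to 10265 FPKM at 48 h, while SNHG7 was lower at 24 h. SNORA9 in SNHG15 went from 502 to 849 FPKM between the siRNAs at 24 h and from 433 to 1627 FPKM at 48 h, where 12 reads were estimated for SAF-A, and its host was level. SNORA17A in SNHG7 was at 101 FPKM (42.0 to 159) and 385 FPKM (285 to 484) at 24 h. At 48 h it was at 424 FPKM and 540.1 FPKM with overlapping intervals, and the 2 control libraries differ by as much as the 24 h pair does. At 48 h 4 of the 7 had intervals apart and higher, where 21.9% of the 96 others did. SNORA44 and SNORA61 in SNHG12 had overlapping intervals at both times. Where an intron stays in a transcript, as around SNORA17A and SNORA17B in NR_003672, reads of the long RNA and of the snoRNA cannot be told apart from these values.

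SNORD22 in SNHG1, the longest C/D RNA of the set at 126 nt, was at 4813 FPKM (4435 to 5191) and 8564 FPKM (8085 to 9044) at 24 h. At 48 h it was at 5173 FPKM (4786 to 5559.9) and 8091 FPKM (5743 to 10439). Both SAF-A libraries are above both control libraries without overlap, and SNHG1 itself was level. Among other C/D RNAs of at least 100 nt, 9 of 16 (56.2%) had intervals apart and higher at 24 h as well. The summed reads of this class went from 24.2 to 42.3 per M in the hosts at 24 h and from 231 to 404 per M outside them, 1.75-fold in both. Among the C/D RNAs under 100 nt with a value, SNORD27 and SNORD30 had intervals apart and higher at 24 h, 2 of 25, where 2.6% of 154 others did. For SNORD30 this is 5 estimated reads against 0, and the deposited interval of a 0 there has no width.

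C/D RNAs under 100 nt showed another picture at 48 h. Their 26 rows in the hosts summed to an estimated 469, 559 and 502 reads in the 3 deep libraries, 16.7, 18.2 and 17.6 per M mapped reads. In SAF-A siRNA at 48 h they summed to 2 reads, 1 each from SNORD47 and SNORD76, or 1.64 per M (exact Poisson interval 0.199 to 5.94). At the rate of control siRNA at 48 h, 21.4 reads would be seen in that library. The other 24 rows were listed at 0. In C/D RNAs under 100 nt outside the hosts the sum went from 38.2 to 14.8 per M (8.77 to 23.4) between the same libraries, on 18 reads.

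For a single short snoRNA a 0 in that library says little. Of the 25 C/D RNAs of any length listed at 0 there, 24 were above 0 in control siRNA at 48 h, and in all 24 of these the FPKM that 3 reads would give was higher than the control level. SNORD80, for example, was at 6317 FPKM in control siRNA at 48 h, while 3 reads in the shallow library would give 8288 FPKM. Its loss was not detectable at this depth. The part of the low depth of that library in the sums of short RNAs was not tested.

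**Figure D4:**
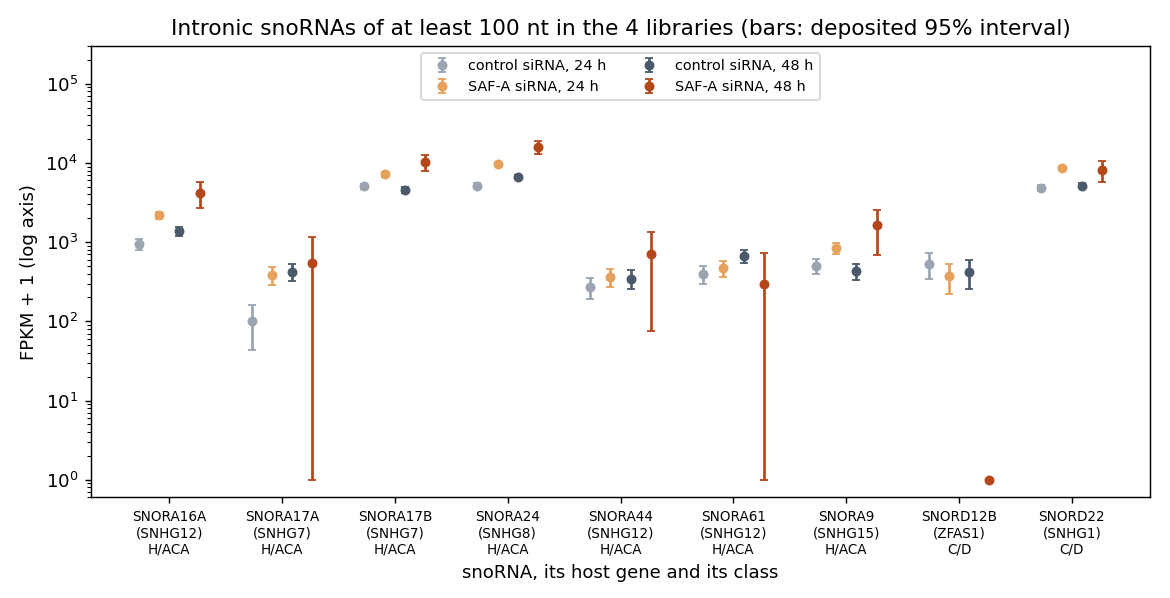
FPKM + 1 (log axis) of the 9 intronic snoRNAs of at least 100 nt in the 4 libraries, with the deposited 95% interval as bars and the host in parentheses. SNORA24, SNORA16A, SNORA17B, SNORA9 and SNORD22 lie higher with SAF-A siRNA at both times, and SNORD12B is listed at 0 in SAF-A siRNA at 48 h.

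The snoRNAs differ in where they sit in the intron, which the choice of hosts did not use. C/D RNAs of the hosts lay at a median of 80.5 nt from the 3′ splice site, with 17 of 28 (60.7%) between 60 and 90 nt. A place near there is known to favour release of C/D particles. In the introns of 58 other hosts the median was 127 nt over 107 C/D RNAs, and 35.5% lay between 60 and 90 nt. The farthest in the hosts was SNORD1A in the last intron of SNHG16, at 1412 nt. H/ACA RNAs, for which no such spacing is known, lay at a median of 330.0 nt in the hosts and 401 nt in 72 other hosts, and 1 of 7 lay between 60 and 90 nt. Among the hosts, 7 hold C/D RNAs and 4 hold H/ACA RNAs, so RNAs of the same host are not independent.

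**Figure D5:**
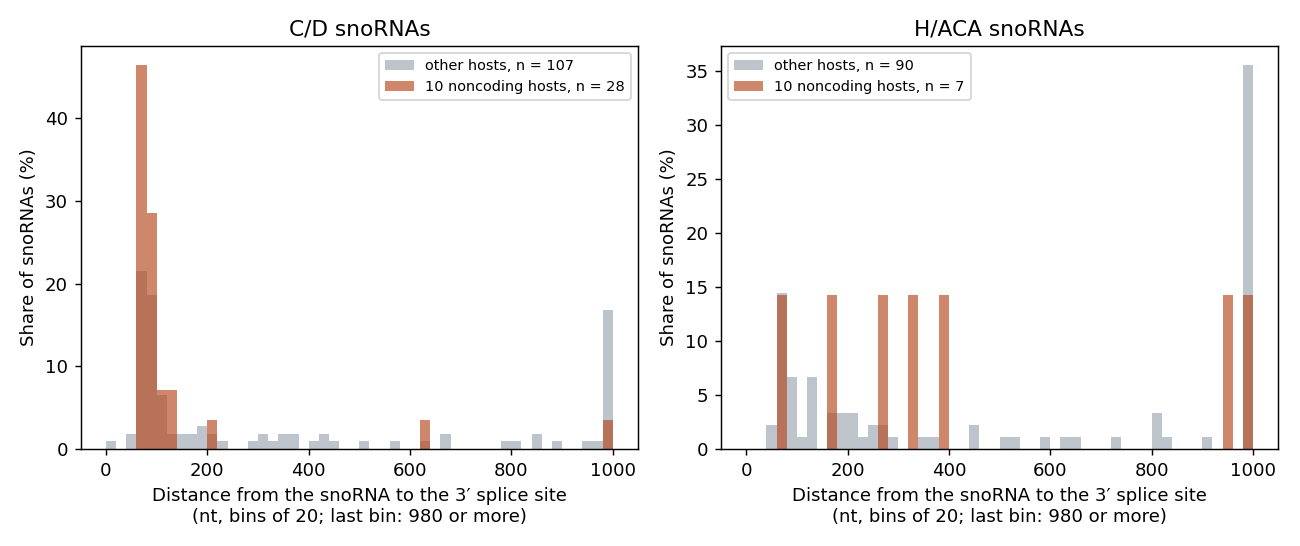
Share of snoRNAs, in percent, by distance to the 3′ splice site in bins of 20 nt, for C/D RNAs and H/ACA RNAs, in the 10 noncoding hosts and in other hosts. The C/D RNAs of the noncoding hosts gather near their median of 80.5 nt, whereas those of other hosts spread to long distances.

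Other genes of the same kind and pathway were read from lists of genes. A list of 15 further noncoding genes named as snoRNA hosts had a row for 12 of them and none for SNHG14, SNHG19 and CWF19L1-AS1. Of the 12, 9 have a snoRNA row in an intron. SNHG3 and LINC-PINT have none in these files, and SCARNA9 is itself a guide RNA in an intron of CEP295. At 24 h none of the 9 changed at least 2-fold, beside 3.08% of tested genes, and their median log2 change was 0.03. At 48 h 6 of 9 fell at least 2-fold and none rose, beside 20.1% and 14.2% of tested genes, and the median was -1.47 against -0.12 for the 10 hosts described here. Over all 12, 7 fell and the median was -1.34.

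SNHG4 had the largest fall of those with a mean of at least 5 FPKM. It went from 26.3 FPKM with control siRNA to being listed at or near 0 with SAF-A siRNA (upper bound 3.78, no estimated read), after 19.4 and 13.6 FPKM at 24 h. LINC-PINT had the highest log2 difference at that level, 0.52, at 10.4 and 15.4 FPKM. The highest of the 12 by mean was DANCR, at 62.3 and 21.9 FPKM at 48 h, the latter on an estimated 17 reads.

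Of 122 tested protein-coding genes with a symbol and a snoRNA in an intron, found by position, none changed at least 2-fold at 24 h, beside 1.83% of tested genes that rose and 1.25% that fell. At 48 h 11 rose and 24 fell, beside 14.2% and 20.1% of tested genes, and the median log2 change was -0.23. EIF1AX, a translation initiation factor, fell most, from 44.3 to 6.03 FPKM. RPSA had the highest log2 change, at 3.53 and 15.3 FPKM, but the unmatched identifier NM_001012321 overlaps it on the same strand and went from 699 to 245 FPKM, so the row of RPSA alone does not give the level of that locus. A further 15 unmatched transcript identifiers have a snoRNA in an intron. Of these, 9 overlap at 1 locus that holds SNORD48 and SNORD52, and summed they were at 191 and 179 FPKM at 24 h and 222 and 253 FPKM at 48 h, a log2 difference of 0.19 at the latter time.

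Of 16 factors of nonsense-mediated decay, the pathway known to remove the spliced hosts, none changed at least 2-fold at 24 h. The share over tested genes was 3.08%. At 48 h none rose and 2 fell, UPF3A and PNRC2, beside 14.2% and 20.1% of tested genes, and the median was -0.13. PNRC2, a decapping partner of UPF1, was at 79.7 FPKM with control siRNA and 20.8 FPKM with SAF-A siRNA, on an estimated 56 reads. UPF1, the central helicase, was at 27.4 and 21.4 FPKM. DCP2, the decapping enzyme, had the highest log2 difference at both times, 0.42 at 48 h and 0.66 at 24 h (8.62 and 14.2 FPKM).

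In the exon junction complex, which marks spliced junctions for that pathway, 1 of 8 rose and 2 fell at least 2-fold at 48 h. These counts are near the 14.2% and 20.1% of tested genes. None changed that much at 24 h, where 3.08% of tested genes did. MAGOH, a core subunit, was at 21.6 FPKM (19.0 to 24.1) and 87.8 FPKM (64.3 to 111, an estimated 59 reads), a log2 change of 1.98. RNPS1, a peripheral subunit, was at 20.2 and 6.26 FPKM (13 reads), a log2 change of -1.54, and CASC3 fell as well (-1.10). EIF4A3, another core subunit, was at 77.0 and 128 FPKM.

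Of 8 protein-coding transcripts known as targets of the pathway, several of which also respond to stress, none changed at least 2-fold at 24 h. Over all tested genes 3.08% did. At 48 h none rose and 1 fell by that rule, beside 14.2% and 20.1% of tested genes. GADD45B fell, from 27.6 to 6.32 FPKM (9 reads), and UPP1 had the highest log2 difference, 0.84, at 17.1 and 31.3 FPKM. The median over the 8 was -0.05 at 24 h and -0.14 at 48 h.

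Of the 10 hosts, 6 have a neighbour that overlaps them on the other strand or starts within 1 kb on it, and the kit named in the labels does not mark strand. GAS5-AS1 shares 41 nt with GAS5 and was at 7.19 (control) and 4.59 FPKM (SAF-A) at 24 h, then 5.64 (control) and 1.68 FPKM (SAF-A) at 48 h. Its intervals overlapped at both times, and the last value rests on 1 estimated read. ZBTB37 starts 368 nt from GAS5 and was between 2.99 and 4.16 FPKM. SLC3A2, an amino acid transporter subunit, starts 124 nt from SNHG1 and was at 143, 131, 129.6 and 105.6 FPKM in that order, beside 121, 116, 115 and 102.5 FPKM for SNHG1.

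ZNFX1, which shares 42 nt with ZFAS1, was at 11.2, 10.7, 11.9 and 10.7 FPKM and did not follow the level of ZFAS1. TRNAU1AP overlaps SNHG12 by 8 nt and was at 7.73, 8.13, 7.59 and 11.9 FPKM. MCMDC2 shares 119 nt with SNHG6 and was at 0.366 FPKM or less, and DIPK1B shares 125 nt with SNHG7 and was at 1.61 FPKM or less. The neighbours of SNHG6, SNHG7 and SNHG12 were below their host, except in SAF-A siRNA at 48 h, where TRNAU1AP was above SNHG12.

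The hosts did not share a pattern over the 4 libraries. After subtracting each gene's mean of log2(FPKM + 1), SNHG15 (distance 0.085) and SNHG1 (0.111) lay nearest to the median pattern of the 10, and SNHG12 (1.53) and SNHG6 (1.38) farthest. Among 7700 other genes (mean from 5 FPKM, length from 300 nt), those nearest to that median pattern by Euclidean distance over the 4 libraries were EWSR1, BRAT1, DNAAF10, PITHD1 and WDR35, at distances of 0.019 to 0.036. The median pattern is close to level, so these are genes that hardly moved, among them EWSR1 at 72.9, 68.5, 73.0 and 67.2 FPKM.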

How the data were processed

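Total RNA depleted of ribosomal RNA was sequenced as 50-base single-end reads from 4 libraries, 1 per group, with a kit that does not mark strand, per the labels' protocols. The authors deposited FPKM values with 95% intervals for 47338 RefSeq rows per library. TopHat2 2.0.10, Bowtie2 2.1.0, Cufflinks 2.2.1, Cuffdiff and hg19 are named in the submitters' processing notes, with no settings.

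RefSeq identifiers were matched to symbols with the RefSeq table of GRCh38.p14, used for names only (97.1% of rows), and rows of a symbol were summed, their bounds included. Identifiers without a symbol, 251 of the tested genes, were kept as rows of their own, although some are transcripts of 1 gene. Contrasts are log2((FPKM + 1)/(FPKM + 1)), and called means at least 2-fold, over genes whose mean reached 1 FPKM. With 1 library per group no p-value was computed. Reads were estimated from FPKM, effective length (fragments of 200 ± 80 nt, assumed) and mapped reads. Mapped reads came from the ratio of deposited coverage to FPKM. Reads of snoRNAs were taken from the deposited intervals instead. The contrast was tested on simulated data. Python 3.11.15, pandas 2.3.3, numpy 2.4.6 and matplotlib 3.10.9 were used.

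Named by rule were all hosts, the neighbours, the 5 genes nearest the hosts' median pattern, and HNRNPU. So were the list members that rose or fell most at 48 h with a mean of at least 5 FPKM. Up to 3 snoRNAs of highest mean per host were planned as well. Of these, SNORD29 and SNORD26 (SNHG1), SNORD87 (SNHG6), SNORD99 (SNHG12), SNORD12 and SNORD12C (ZFAS1), and SNORD1B and SNORD1C (SNHG16) were not described. Other snoRNAs and transcripts, the markers, NM_001012321, and DANCR, UPF1, UPF3A, CASC3 and EIF4A3, were named after their values were seen. The counts over coding hosts with a symbol, over noncoding hosts with an intronic snoRNA row, and over C/D RNAs by length were also made after the values were seen. The hosts and the gene lists were chosen with earlier results of these data known. Sequences were read from the GRCh37 genome, and snoRNA positions from the deposited coordinates. Some sequences are not reported here.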

Additional observations from a re-analysis of the deposited data

Results flagged for a closer look

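Some transcripts and 1 snoRNA went in opposite directions in 2 pairs of libraries, and these differences were not tested, since each group has 1 library. For SNHG8 NR_003584 the log2 change from 24 h to 48 h was 0.31 with control siRNA and -2.30 with SAF-A siRNA. For SNHG8 NR_034010 it was -3.08 with control siRNA and 2.53 with SAF-A siRNA. For ZFAS1 NR_036659 it was 0.48 with control siRNA and -5.95 with SAF-A siRNA. SNORD27 had a log2 change between siRNAs of 1.59 at 24 h and -10.62 at 48 h, where it is listed at 0 in the SAF-A library, so that the second value depends on the 1 FPKM added and is no size of a fall. In all 4 the second change rests on the library of 1.22 M reads, and the first is between deep libraries. For SNHG8 NR_034010 that first change, from 21.9 FPKM (17.2 to 26.6) to 1.71 FPKM (0.386 to 3.04), had intervals apart between the 2 control libraries.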

How the results depend on the processing

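At 48 h the number of hosts at least 2-fold higher with SAF-A siRNA was 1, and became 2 with the most abundant row of each symbol only, 2 in reads per M mapped reads (an alternative chosen after seeing the data) and 3 at 1.5-fold. The number lower was 1, and became 3 with the most abundant row only and 2 at 1.5-fold. From 24 h to 48 h with SAF-A siRNA the number higher was 2, and became 1 with TPM over rows of at least 300 nt and 4 at 1.5-fold, and the number lower was 1, and became 3 with the most abundant row only and 3 at 1.5-fold. The cause was not tested. The median over the hosts at 48 h was -0.12, and was 0.03 with the most abundant row only and 0.03 without rows under 300 nt (also chosen after seeing the data). At 24 h it was -0.03, -0.22 as TPM and 0.03 when centred. SNHG8 at 48 h was 0.13 without rows under 300 nt, and SNHG16 was 0.20 at 24 h and 0.13 at 48 h with its most abundant row only, each opposite in sign to the summed rows. The summed snoRNA level of SNHG1 at 48 h was -1.18 and became 0.65 with snoRNAs of at least 100 nt only.

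Over all tested genes 213 rose and 145 fell at least 2-fold at 24 h. These counts were 59 and 46 with TPM over rows of at least 300 nt, 336 and 296 with the most abundant row only, 410 and 264 at 1.5-fold, 80 and 31 with intervals apart as well, and 43 and 27 among genes of at least 300 nt. With control siRNA over time 208 rose and 158 fell, and the same settings gave 89 and 82, 354 and 316, 496 and 394, 71 and 52, and 62 and 47. At 48 h 1655 rose and 2342 fell, and 2869 and 3778 at 1.5-fold. With SAF-A siRNA over time 1755 rose and 2068 fell, and 3095 and 3428 at 1.5-fold. Of the single host values, 268 stayed inside the deposited bounds and 12 did not. Of the transcript shares, 88 stayed inside and 28 did not.

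Leaving out a replicate was not run, because it would leave a group empty. No paired analysis was possible because each group has 1 library and no test was made. The depth of SAF-A siRNA at 48 h limits each comparison with it, most of all for transcript shares and short snoRNAs.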
